A study of Mus musculus with 4 samples.

Results

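Type 2 conventional dendritic cells (cDC2) of mouse melanoma tumours were described here from single-cell RNA sequencing, as the cells to which the deposited cell table gives the class name cDC2. They numbered 1962 of 34447 cells, with 645 in the CTRL library, 390 in IRF3/7, 666 in COX2i and 261 in COX2i + 5-AZA. Conventional dendritic cells take up antigen in a tissue, carry it to lymph nodes and present it to T cells. The cDC2 branch depends on IRF4, presents mainly on MHC class II to CD4+ T cells and carries C-type lectins such as CD209a, CLEC10A (CD301a) and MGL2 (CD301b). Under type I interferon, cDC2 are known to take on an inflammatory state with Fc receptors and other genes shared with monocytes, which makes both cell types hard to tell apart by single markers.

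The cells came from CD45+ sorts of YUMM1.7-OVA RTT tumours, an engineered mouse melanoma line with Braf V600E and Cdkn2a-/- made to express ovalbumin and selected for resistance to BRAF inhibition. All tumours grew in Rag2-/- mice aged 6 to 12 weeks, which have no T or B cells of their own, and all mice received activated OT-1 CD8+ T cells against ovalbumin by adoptive transfer (ACT) on day 7, with harvest on day 10, 72 h later. CTRL tumours carried an empty mCherry vector. IRF3/7 tumours carried Irf3 and Irf7 under the viral SFFV promoter in the cancer cells, as a sorted bulk population and not as 1 clone, so that the dendritic cells themselves were not engineered. COX2i tumours were mCherry RTT tumours in mice given the COX2 inhibitor celecoxib at 30 mg per kg daily from day 3. COX2i + 5-AZA tumours were mCherry RTT tumours in mice given celecoxib and the DNA methyltransferase inhibitor 5-azacytidine at 1 mg per kg every 3 days. Each group was 1 library made from 3 pooled tumours.

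A group of 1 library allows no test, so every difference given sets 1 library against another without a replicate check. Levels are unique molecular identifiers (UMIs) of a gene summed over the cDC2 of a library, scaled by the UMIs of all genes in those cells to the usual unit CPM. Intervals in parentheses are exact 95% intervals and cover counting error only. Each gene is compared with itself across libraries, since probe efficiency differs between genes. Where 4 values follow each other they stand in the order CTRL, IRF3/7, COX2i and COX2i + 5-AZA. The cDC2 gave 2784850, 1311125, 3351670 and 1311784 UMIs, with medians of 4106, 3137, 4578 and 4762 UMIs per cell. A gene with 3 UMIs, the floor used for a count of 0, stood at between 0.895 and 2.29 CPM. Of the 1962 cDC2, 571 lay in a droplet barcode that also occurred in another library, which the probe barcodes of the multiplexed kit keep apart, and 0 full cell barcodes were shared.

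The class name was first checked against markers. The 10 genes that led cDC2 over all other cells of the same library most evenly in all 4 libraries were Cd209a, Ffar2, H2-Oa, H2-Ob, Kmo, Klri1, Ctnnd2, Zbtb46, Bcl11a and Chn2. These genes helped to define the cluster, so they are a description and not a finding. Zbtb46, the transcription factor that marks the conventional dendritic lineage (chromosome 2, 181387762 to 181459426, minus strand, GRCm38), stood at 124, 149, 139 and 175 CPM in cDC2. In all other cells its highest level in any library was 8.07 CPM. Kmo, an enzyme of tryptophan breakdown, stood at 284, 564, 303 and 371 CPM, and Klri1, a lectin-like receptor, at 169, 178, 182 and 175 CPM. H2-Oa and H2-Ob, which form the modulator of class II peptide loading, led cDC2 in every library as well.

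Shares of cells with a UMI were compared after each cell had been thinned to 1000 UMIs, which left out 1 COX2i + 5-AZA cell. At that depth Zbtb46 was found in 11.8%, 12.3%, 14.3% and 19.6% of cDC2. Without thinning the shares were 36.0%, 33.8%, 42.2% and 50.2%. In the IRF3/7 library the inflammatory monocyte class, Infl_Mono, with a median of 3076 UMIs per cell, showed Zbtb46 in 0.0231% and Klri1 in 0.277% of its cells. The cDC2 of the same library showed Klri1 in 14.6% (11.3 to 18.5). Both genes are among those that helped to define the cluster, so these shares are a description too.

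Of the marker list given for the class (Cd209a, Clec10a, Flt3, Itgax, H2-Eb1 and Ccl17), 6 of 6 were detected in all 4 libraries. In IRF3/7 Ccl17 was only at the floor of 3 UMIs, found in 0.256% of cells without thinning. Relative to CTRL, IRF3/7 had 3 of 6 past 2-fold lower and 0 higher (median log2 ratio -1.17), where 13.9% and 5.83% of all genes were. Cells with at least 1 UMI of Flt3, Cd209a, Clec10a, Zbtb46 or Ccl17 made up 69.8% (66.1 to 73.3) of CTRL, 45.6% (40.6 to 50.7) of IRF3/7, 77.5% (74.1 to 80.6) of COX2i and 73.6% of COX2i + 5-AZA cDC2. The IRF3/7 cells were also the shallowest. The 212 IRF3/7 cDC2 without any of these UMIs held Kmo at 531, Klri1 at 156 and Ffar2 at 507 CPM, where the 178 cells with one held 601, 203 and 592 CPM. H2-Eb1 stood at 20113 CPM in the former and 19533 CPM in the latter. Other genes lay further apart, and the cells without a marker UMI held less H2-Oa (229 against 344 CPM), H2-Ob (71.4 against 139 CPM) and Mgl2 (33.5 against 122 CPM). They also held more of the monocyte gene Fcgr1 (1539 against 1094 CPM) and the macrophage gene C1qa (249 against 73.6 CPM).

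Markers of other cell types were low or moved in a few lists. NK and T cell markers summed to 0.718, 67.1, 7.46 and 25.9 CPM over 12 genes, with Cd3d, Cd3e and Cd3g at 0 in every library. B cell markers summed to at most 4.58 CPM over 3 genes. Macrophage markers summed to 1971, 850.4, 2057 and 1996 CPM over 10 genes, lowest in IRF3/7, where Pf4 was at 0. Mast cell markers summed to 134, 79.3, 155 and 152 CPM, mostly Kit, which cDC2 of CTRL carried at 113 CPM.

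Summed over the list, the monocyte markers were higher in IRF3/7 and COX2i + 5-AZA, with Plac8 (5242 and 1933 CPM) the larger part of both sums. In COX2i + 5-AZA relative to CTRL 2 of 7 genes were past 2-fold higher and 1 lower, against 3.61% and 4.76% of all genes. The 7 measured genes, among them Plac8, Fcgr1, Ccr2, Chil3, C5ar1 and Csf3r, summed to 1394, 8158, 1578 and 3241 CPM in cDC2, against 18646 CPM in IRF3/7 Infl_Mono and 15386 CPM in COX2i + 5-AZA Infl_Mono. None was at 0 in any library. Their part in the other differences between libraries was not tested.

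A small set of cells went against the class name. Cells with 3 or more UMIs of the plasmacytoid dendritic cell genes Siglech, Ly6d, Ccr9, Klk1 and Pacsin1 numbered 1, 13, 2 and 5. In IRF3/7 these 13 cells held 272 of the 301 UMIs of the 5 genes found in cDC2. Their level of Tcf4, the lineage factor of plasmacytoid dendritic cells that was not used to pick them, was 1024 CPM against 101 CPM in the other 377 cells. Their H2-Eb1 was 2048 CPM against 20453 CPM, and their Klri1 was 22.8 CPM against 184 CPM. Siglech was 79.3 CPM over all IRF3/7 cDC2 and 1.58 CPM without these cells, a fall that follows in large part from picking them by it. Without them Isg15 was 4804, Fcgr1 1363 and Plac8 5163 CPM, close to the values over all 390 cells given in what follows.

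The share of cDC2 among all cells was 7.20% (6.68 to 7.76) in CTRL, 6.16% (5.58 to 6.78) in IRF3/7, 7.29% (6.77 to 7.84) in COX2i and 2.60% (2.30 to 2.93) in COX2i + 5-AZA. The last library held the lowest share, 2.80-fold lower than COX2i (2.43 to 3.25). When a cDC2 needed a UMI of Flt3, Cd209a, Clec10a, Zbtb46 or Ccl17 the shares were 5.03%, 2.81%, 5.65% and 1.91%, which put IRF3/7 nearer to COX2i + 5-AZA than to CTRL. Such a UMI depends on depth and on the level of these genes. IRF3/7 cDC2 had the fewest UMIs per cell (median 3137), and Flt3, Cd209a, Clec10a and Ccl17 were lower there than in CTRL. The part of detection in these shares was not tested. Among dendritic cells as a whole (cDC2, cDC1 and the CCR7+ class that the table names DC3), cDC2 made up 96.1%, 78.9%, 86.2% and 64.0%. In COX2i + 5-AZA the DC3 share of all cells was 0.867% (0.695 to 1.07), against 0.307% (0.204 to 0.443) in COX2i, and that of cDC1 was 0.598% against 0.865%. A share can move because another class grows or shrinks, and absolute cell numbers per tumour were not analysed here.

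**Figure D1:**
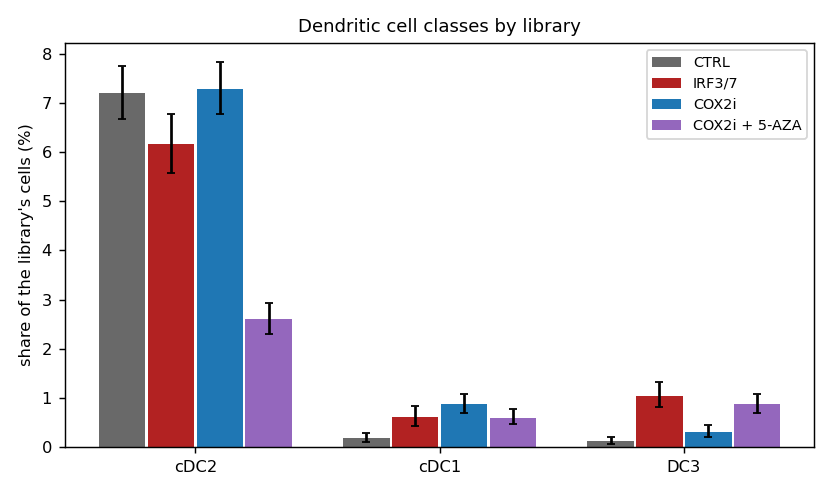
Share of each library's cells (percent, y axis from 0) in the classes cDC2, cDC1 and DC3, 1 bar per library, with exact 95% intervals for counting error. The COX2i + 5-AZA bar for cDC2, at 2.60%, is the lowest of the 4, while the DC3 bars are highest in IRF3/7 (1.04%) and COX2i + 5-AZA (0.867%).

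The surface lectins that usually define cDC2 differed between libraries. Mgl2 (chromosome 11, 70130329 to 70137550, plus strand) stood at 875, 75.5, 1543 and 1104 CPM. IRF3/7 stood alone at the low end, 11.6-fold below CTRL (9.48 to 14.3), and COX2i was 1.76-fold above CTRL (1.68 to 1.85). The size of the first difference moved with the cells kept. Mgl2 stood at 917 CPM in CTRL and 155 CPM in IRF3/7 among cells with more than 2000 genes, at 948 and 122 CPM among cells with a UMI of a supporting marker, and at 886 and 53.5 CPM without cells of over 2 times the median UMI total of their library's cDC2. At 1000 UMIs Mgl2 was found in 42.0% (38.2 to 45.9), 2.82% (1.42 to 4.99), 56.2% (52.3 to 60.0) and 46.5% (40.4 to 52.8) of cDC2. Without thinning the shares were 59.7%, 6.92%, 73.9% and 65.1%. In the non-immune cells left after the sort (class Myofibrobl, medians of 11036 to 20862 UMIs per cell) the share at 1000 UMIs was at most 0.768%.

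Cd209a, the mouse relative of the lectin DC-SIGN, stood at 334, 83.9, 581 and 151 CPM. It was highest in COX2i and lowest in IRF3/7, which was 3.98-fold below CTRL (3.26 to 4.89). COX2i + 5-AZA was 3.85-fold below COX2i (3.33 to 4.48), although Mgl2 differed by only 1.40-fold between the same libraries. Clec10a, the other CD301 lectin, was 189, 64.1, 168 and 150.2 CPM, again lowest in IRF3/7. The mannose receptor Mrc1 was 316, 11.4, 448 and 229 CPM, and Cd24a, a cDC surface glycoprotein, was 519, 38.1, 337 and 376 CPM.

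Other lectins went the opposite way in IRF3/7. Clec4a3 and Clec4a1, receptors of the DCIR family, stood at 113, 482, 94.0 and 109 CPM and at 133, 497, 84.4 and 165 CPM. IRF3/7 was the highest library for both, 4.25-fold (3.71 to 4.88) and 3.73-fold (3.28 to 4.25) above CTRL. Of the 26 genes in the list of cDC2 lectins and receptors, 24 were in the table and 20 had at least 50 UMIs in IRF3/7 and CTRL together. Of those, 4 were past 2-fold higher and 8 past 2-fold lower, where 5.83% and 13.9% of all 7909 genes measured were.

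**Figure D2:**
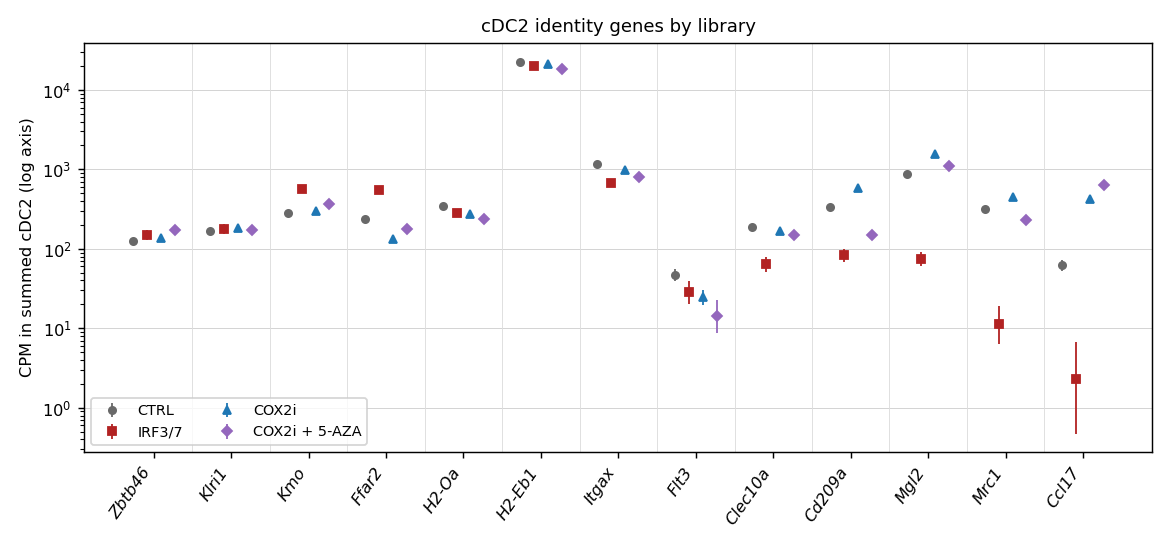
Level in summed cDC2 (CPM, log axis) of 13 identity genes, 1 point per library with its exact 95% interval for counting error. Zbtb46 and Klri1 lie close together across the 4 libraries, while Mgl2, Mrc1 and Ccl17 are lowest in IRF3/7 (75.5, 11.4 and 2.29 CPM).

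Among the transcription factors, Irf4, which cDC2 need, stood at 74.0, 31.3, 104 and 64.8 CPM, and Irf8, which directs cDC1 and is induced by interferon, at 88.0, 407, 237 and 481 CPM. Irf8 was lowest in CTRL and Irf4 lowest in IRF3/7. The 13 IRF3/7 cells with plasmacytoid markers held Irf8 at 4097 CPM, and without such cells it was 84.4, 279, 229 and 416 CPM in the 4 libraries. Klf4 was 492, 242, 327 and 421 CPM, and Id2, needed by all conventional dendritic cells, was level at 1230, 1258, 872 and 964 CPM. Receptors for growth factors were lower than in CTRL for Flt3 (46.7, 29.0, 24.5 and 14.5 CPM) and Csf1r (654, 173, 520.3 and 383 CPM). Csf2ra, a chain of the GM-CSF receptor, was 362, 329, 414 and 367 CPM. Over the 20 genes of this list the median log2 ratio was -0.05 for IRF3/7 against CTRL, 0.03 for COX2i against CTRL, -0.06 for COX2i + 5-AZA against CTRL and -0.02 for COX2i + 5-AZA against COX2i.

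Over all genes, a difference within cDC2 was counted as past 2-fold where both libraries together held 50 UMIs or more of the gene. IRF3/7 against CTRL gave the most, with 1559 of 7909 genes (19.7%), of which 461 were higher and 1098 lower. COX2i against CTRL gave 302 of 8699 (3.47%), with 2.74% of genes higher and 0.736% lower. COX2i + 5-AZA against CTRL gave 668 of 7980 (8.37%), with 3.61% higher and 4.76% lower. COX2i + 5-AZA against COX2i gave 687 of 8280 (8.30%), with 2.62% higher and 5.68% lower. These shares of all genes are the background to each list. A minimum of 200 UMIs gave 310 higher and 388 lower of 4237 genes in the first comparison, 91 and 15 of 5627 in the second, 169 and 137 of 4287 in the third and 110 and 127 of 4679 in the last. With a minimum of 20 UMIs they were 554 and 1612 of 9225, 343 and 139 of 9747, 409 and 657 of 9298, and 326 and 753 of 9468. The median log2 ratio over all genes with at least 20 UMIs was -0.29, 0.00, -0.14 and -0.11 in these comparisons, and list medians are to be read against it. Under size factors that set the typical gene level, log2 ratios moved up by 0.28, 0.02, 0.13 and 0.11, and the counts became 665 higher and 673 lower, 250 and 57, 363 and 255, and 280 and 389. The balance between higher and lower genes thus moved with the scaling except in COX2i against CTRL.

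Interferon-regulated genes differed strongly between the cDC2 of the 4 libraries, and not in 1 order. Genes skewed to type I interferon were highest by far in IRF3/7, and next in COX2i + 5-AZA. Genes skewed to interferon-γ were high in both IRF3/7 and COX2i + 5-AZA and intermediate in COX2i. Both kinds of interferon share many target genes, so each list is skewed to 1 kind and not exclusive to it.

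Isg15, a ubiquitin-like protein induced by interferon (chromosome 4, 156199424 to 156200818, minus strand), stood at 141, 4717, 246 and 719.6 CPM. IRF3/7 was 33.5-fold above CTRL (30.3 to 37.2) and COX2i + 5-AZA was 2.93-fold above COX2i (2.67 to 3.22). The share of cDC2 with an Isg15 UMI at 1000 UMIs was 9.15% (7.04 to 11.6), 90.0% (86.6 to 92.8), 14.7% (12.1 to 17.6) and 35.8% (29.9 to 41.9). Without thinning the shares were 21.9%, 98.7%, 36.8% and 69.7%. No class is known to lack Isg15, and the non-immune class, with the most UMIs per cell, showed it in 1.26%, 62.2%, 3.95% and 6.88% of its cells at 1000 UMIs, below cDC2 in every library.

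The antiviral effectors were highest in IRF3/7 as well, and differed among themselves in the other libraries. Ifit3, a partner of the RNA-binding IFIT1, stood at 60.0, 1518, 48.3 and 77.0 CPM, and Rsad2 (viperin) at 32.7, 858, 55.2 and 73.9 CPM. Oasl1, of the oligoadenylate synthetase family, was 10.8, 408, 14.0 and 55.6 CPM. For Ifit3 the COX2i + 5-AZA level was 1.28-fold that of CTRL with an interval that spanned 1 (0.993 to 1.65), whereas Oasl1 was 5.17-fold higher (3.33 to 8.19). All 14 measured type I genes were past 2-fold higher in IRF3/7 against CTRL, with a median log2 ratio of 4.50. COX2i against CTRL had 0 of 14, with a median of 0.46. The combined treatment had 12 of 14 when set against CTRL (median 1.61) and 8 of 14 when set against COX2i (median 1.03). Of all genes, 5.83%, 2.74%, 3.61% and 2.62% were past 2-fold higher in these 4 comparisons.

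Irf7, the factor that amplifies type I interferon, stood at 97.0, 2930, 153 and 483 CPM in cDC2, while Irf3 was level at 45.6, 48.8, 50.1 and 41.2 CPM. The IRF3/7 cancer cells carry an Irf7 transgene, and Irf7 in the non-immune class of that library was 14909 CPM, so the part of free transgene RNA in the cDC2 level was not tested. Without Irf7 the type I list keeps 13 genes, each past 2-fold higher in IRF3/7.

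Gbp2, a guanylate-binding protein that attacks vacuoles of pathogens (chromosome 3, 142620602 to 142638008, plus strand), stood at 91.6, 1087, 448 and 1408 CPM. It was lowest in CTRL and higher in COX2i + 5-AZA than in IRF3/7. COX2i was 4.90-fold above CTRL (4.29 to 5.61) and COX2i + 5-AZA was 3.14-fold above COX2i (2.93 to 3.36). Igtp, an immunity-related GTPase, was 37.3, 610.2, 132 and 348 CPM. Serpina3g, a protease inhibitor, was 13.6, 227, 35.2 and 344 CPM. Irf1, the main transcription factor downstream of interferon-γ, was 185, 1070, 468 and 912 CPM, and Socs1, which restrains the receptor's signal, was 28.0, 227, 87.7 and 245 CPM.

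Of the interferon-γ list, 10 of 12 genes were past 2-fold higher in IRF3/7 (median log2 ratio 3.43) and 11 of 12 in COX2i (median 1.54), each set against CTRL. For COX2i + 5-AZA the counts were 12 of 13 relative to CTRL (median 3.56) and 11 of 13 relative to COX2i (median 1.65). No gene of this list was past 2-fold lower in any of the 4 comparisons, in which 5.83%, 2.74%, 3.61% and 2.62% of all genes were higher. In COX2i against CTRL the interferon-γ list therefore stood apart from the type I list, which had 0 of 14. Gbp2, Tgtp1 and Serpina3g belong to families with near-identical copies, and probes were not checked for cross-binding.

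**Figure D3:**
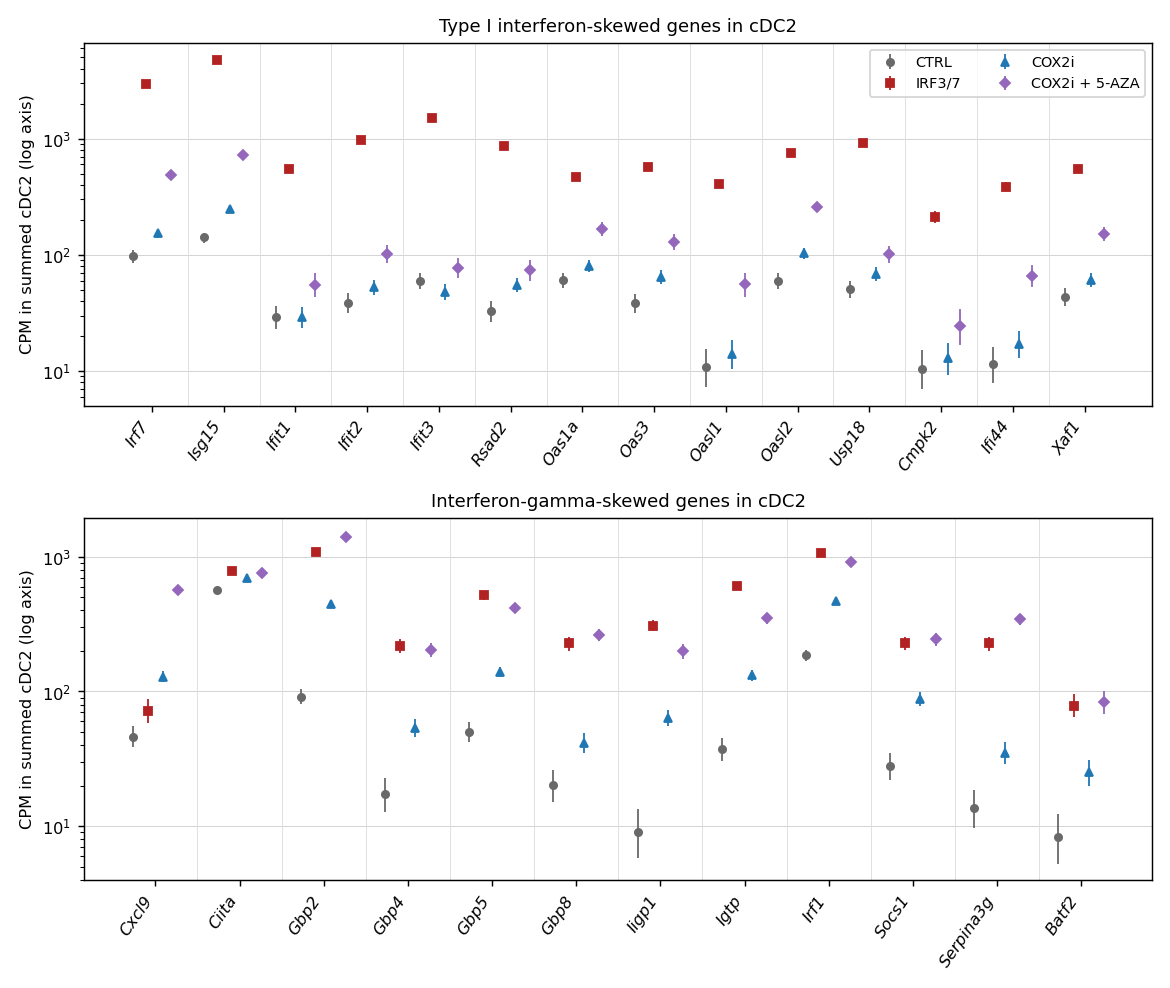
Level in summed cDC2 (CPM, log axis) of the 14 type I interferon-skewed genes (upper panel) and of the interferon-γ-skewed genes with at least 3 UMIs in every library (lower panel), 1 point per library with its exact 95% interval for counting error. The IRF3/7 points lie above all others for each type I gene, while for Gbp2 (1087 against 1408 CPM) and Cxcl9 (71.7 against 571 CPM) COX2i + 5-AZA is above IRF3/7.

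Type I-skewed UMIs were spread over nearly all cDC2 in IRF3/7 and held by fewer cells elsewhere. With each cell thinned to 1000 UMIs, the UMIs of the type I list had a median per cell of 0, 14.0, 0 and 2.00. In IRF3/7, 0 of 390 cDC2 had none, which at the floor of 3 counts allows a share of up to 0.769%. In CTRL 474 of 645 had none. The tenth of cells with the most type I UMIs held 75.8% of them in CTRL, 22.6% in IRF3/7, 70.0% in COX2i and 39.2% in COX2i + 5-AZA. For the interferon-γ list the medians were 1.00, 5.00, 1.00 and 5.00, and the same share was between 24.8% and 40.5%. The IRF3/7 and COX2i + 5-AZA cells thus overlapped in interferon-γ-skewed UMIs per cell and lay apart in type I-skewed UMIs.

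**Figure D4:**
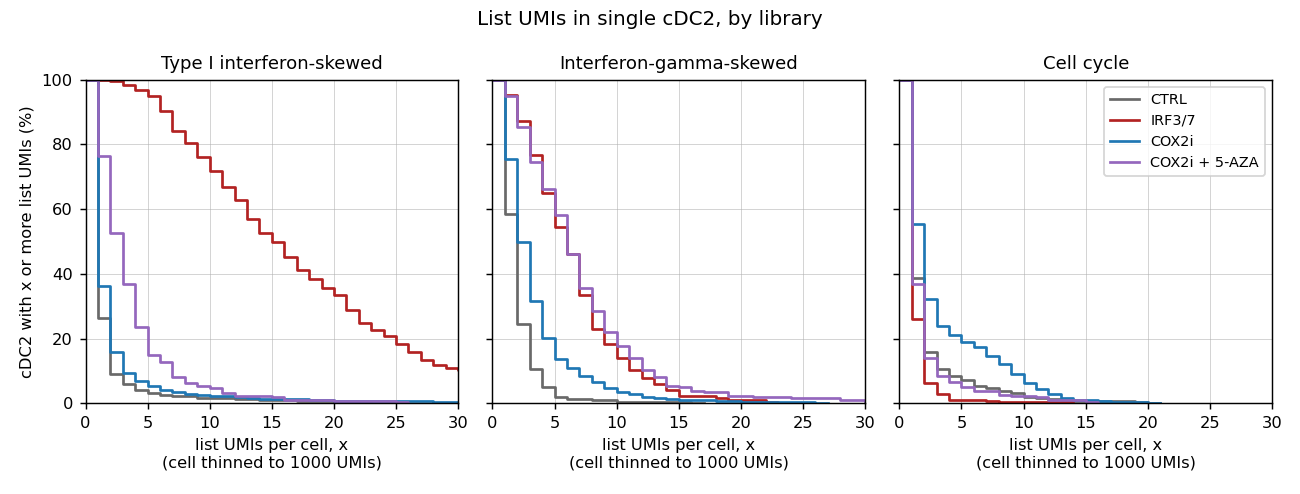
Share of cDC2 (percent, y axis) that hold at least x UMIs of a list (x axis), with each cell thinned to 1000 UMIs and 1 line per library, for the type I interferon-skewed, interferon-γ-skewed and cell cycle lists (x axis cut at 30 UMIs). The IRF3/7 line is far to the right for type I genes (median 14.0 UMIs), runs with COX2i + 5-AZA for interferon-γ genes (medians 5.00), and COX2i is the highest line for the cell cycle.

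Many genes of both lists carry an interferon-stimulated response element, the site where interferon regulatory factors and the complex downstream of the type I receptor bind. The motif searched was GAAA, any 2 bases and GAAA again, on either strand and with overlaps counted, in the 250 bases before each RefSeq gene start (GRCm38.p6). It was present for 3.99% of the 27025 genes with a window, in 6 of 13 type I genes with a window, in 5 of 8 interferon-γ genes and in 0 of 16 cell cycle genes. Among genes measured in IRF3/7 against CTRL, 4.27% had the motif, as did 21.1% of those past 2-fold higher (78 of 369) and 3.65% of those past 2-fold lower. Among genes past 2-fold higher the share was 11.5% for COX2i relative to CTRL, 21.1% for COX2i + 5-AZA relative to CTRL and 19.4% for COX2i + 5-AZA relative to COX2i. A match of letters is a description and not a bound site. Stretches upstream of the RefSeq starts of 5 genes that the interferon results turn on are shown in the direction of transcription, with each motif, or its reverse complement, in capitals. They lie at chr4:156200852-156200931 (Isg15, minus strand), chr19:34583338-34583417 (Ifit3, plus strand), chr5:120907526-120907580 (Oas1a, minus strand), chr5:92349058-92349137 (Cxcl10, minus strand) and chr3:142620569-142620648 (Gbp2, plus strand). The Gbp2 stretch lies before the RefSeq start, but its motif falls within the gene as placed by GENCODE, whose start is further upstream. Isg15 and Oas1a hold overlapping motifs, which print as 1 run of capitals.
Isg15: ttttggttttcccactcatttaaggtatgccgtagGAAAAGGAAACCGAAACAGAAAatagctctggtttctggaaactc
Ifit3: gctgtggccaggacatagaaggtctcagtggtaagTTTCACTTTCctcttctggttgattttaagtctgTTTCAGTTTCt
Oas1a: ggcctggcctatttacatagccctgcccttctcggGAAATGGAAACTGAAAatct
Cxcl10: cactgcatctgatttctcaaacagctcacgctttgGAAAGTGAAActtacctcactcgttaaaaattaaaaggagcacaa
Gbp2: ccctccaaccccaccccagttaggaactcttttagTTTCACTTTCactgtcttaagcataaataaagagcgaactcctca

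The same lists were read in other classes with at least 50 cells in both libraries. In IRF3/7 against CTRL the type I median log2 ratio was 4.50 in cDC2, 0.76 in Infl_Mono and 6.74 in the non-immune class. Infl_Mono already stood high in CTRL, with Isg15 at 2071 CPM in 93 cells, so the low ratio there came with a high starting level. The paper identifies these cells as inflammatory by their high levels of interferon-stimulated genes. Cells low in such genes may thus fall outside the class, which limits the ratios it can show between libraries. In COX2i + 5-AZA against COX2i the type I median was 1.03 in cDC2, 1.40 in cDC1 and 0.63 in TAM_C1q, but -0.23 in Infl_Mono and -0.20 in Monocyte_1. The interferon-γ median was 1.65, 1.25, 2.27, 0.86 and 0.29 in the same classes. TAM_cycling stood at 1.69 for type I and 2.53 for interferon-γ, both above cDC2. The non-immune class stood at 0.91 and 2.61, NK_cells at 0.73 and 0.69 and TAM_Spp1 at 0.22 and 1.59. In COX2i against CTRL the type I and interferon-γ medians were 0.46 and 1.54 in cDC2, 0.49 and 1.82 in TAM_cycling and 0.27 and 1.36 in TAM_Spp1. They were 0.22 and 0.88 in TAM_C1q, -0.02 and 0.68 in Infl_Mono, 2.13 and 3.22 in the non-immune class and 2.99 and 2.86 in Ctsk_Macro. A larger list of 128 interferon-stimulated genes (ISG-DC), drawn from dendritic cells in published work, had 94 of 117 measured genes past 2-fold higher in IRF3/7 relative to CTRL and 34 of 114 in COX2i + 5-AZA relative to COX2i. A published inflammatory cDC2 list (20 genes) had 16 of 20 and 12 of 20, and in COX2i against CTRL it had 5 of 20. Of all genes, 5.83% were past 2-fold higher in IRF3/7 relative to CTRL, 2.62% in COX2i + 5-AZA relative to COX2i and 2.74% in COX2i against CTRL. Both published lists share members with the interferon lists.

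Of the genes of antigen presentation, most of class I were past 2-fold higher in IRF3/7 and COX2i + 5-AZA relative to CTRL, and those of class II lay near the typical gene. Of 16 measured class I genes, 15 were past 2-fold higher in IRF3/7 against CTRL (median log2 ratio 1.55), the exception being the peptide trimmer Erap1 at 112, 67.1, 129 and 144 CPM. The combined treatment had 10 of 15 relative to CTRL (median 1.27) and 1 of 16 relative to COX2i (median 0.77). H2-Q7, a non-classical class I gene, stood at 97.3, 913, 141 and 317 CPM, lowest in CTRL and 9.38-fold higher in IRF3/7 (8.22 to 10.7). Nlrc5, the class I transactivator, was 58.5, 387, 118 and 229 CPM, and B2m, the light chain, was 809, 1766, 1143 and 1970 CPM. In COX2i against CTRL 1 of 15 was past 2-fold, with a median of 0.49. The shares of all genes past 2-fold higher were 5.83%, 2.74%, 3.61% and 2.62% in the 4 comparisons. Class I genes are near-identical in parts, and their single values are uncertain to that extent.

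Class II genes stayed near the median of all genes. H2-Eb1, a β chain, stood at 22743, 19836, 21279 and 18117 CPM, and Ciita, the class II transactivator, at 565, 779, 689.5 and 760 CPM. The medians over 15 genes were -0.16, -0.05, -0.28 and -0.14 in the 4 comparisons. H2-Eb2, a rarely used β chain, was the exception in 3 of the 4 comparisons at 6.46, 33.6, 5.37 and 24.4 CPM. H2-DMb2, a chain of the peptide exchange factor, was 191, 79.3, 231 and 149 CPM, past 2-fold lower in IRF3/7 against CTRL.

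Sensors of nucleic acid were higher in IRF3/7. Tlr7, which reads single-stranded RNA, stood at 7.18, 119.7, 5.07 and 19.8 CPM, and Tlr9, which reads unmethylated DNA, at 48.1, 328, 45.1 and 74.7 CPM. IRF3/7 was the highest library for both, 16.7-fold (10.4 to 28.0) and 6.82-fold (5.60 to 8.34) above CTRL. Plasmacytoid dendritic cells are rich in both, and the 377 IRF3/7 cDC2 without 3 plasmacytoid UMIs held Tlr7 at 110.5 and Tlr9 at 329.9 CPM. Zbp1, a sensor of Z-form nucleic acid, was 63.2, 1297, 174 and 475 CPM, and Ifih1 (MDA5) was 80.4, 618, 75.5 and 114 CPM. Of 18 pattern recognition genes measured in IRF3/7 against CTRL, 11 were past 2-fold higher and 1 lower, the latter being Tlr2 at 398, 160.2, 245 and 236 CPM. In COX2i + 5-AZA against COX2i 5 of 18 were higher and 0 lower. Higher genes were thus 61.1% and 27.8% of the list, against 5.83% and 2.62% of all genes. Lower ones were 5.56% and 0%, against 13.9% and 5.68% of all genes.

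Fc receptors and monocyte genes showed a split. Fcgr1 (CD64), the high-affinity IgG receptor used to mark inflammatory cDC2 and monocytes, stood at 249.9, 1327, 319.8 and 457 CPM. It was 5.31-fold above CTRL in IRF3/7 (4.86 to 5.81), and Fcgr4 was 227, 713, 276 and 476 CPM. The inhibitory receptor Fcgr2b went the other way at 1391, 350.1, 1220 and 874 CPM. Plac8 (chromosome 5, 100553725 to 100572245, minus strand) stood at 186, 5242, 424 and 1933 CPM and was found at 1000 UMIs in 11.8%, 93.3%, 20.1% and 53.5% of cDC2, against 0.903%, 13.4%, 1.86% and 6.25% of non-immune cells. Without thinning the cDC2 shares were 19.7%, 99.0%, 37.5% and 72.4%. Ccr2, which calls monocytes to inflamed tissue, was lower, at 732, 309, 602 and 228 CPM, so that the monocyte list did not move as a block. In IRF3/7 relative to CTRL 5 of its 7 genes were past 2-fold higher and 1 lower. In COX2i + 5-AZA 2 were higher and 1 lower relative to CTRL, and 4 higher and 1 lower relative to COX2i. Of all genes, 5.83% were higher and 13.9% lower in the first comparison, 3.61% and 4.76% in the second, and 2.62% and 5.68% in the last.

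Chemokines differed between libraries gene by gene. Ccl17, which draws CCR4+ T cells and is a marker of the class (chromosome 8, 94810453 to 94812036, plus strand), stood at 62.1, 2.29, 421 and 641 CPM. IRF3/7 had 3 UMIs of it in a single cell of 390, and the ratio to CTRL was 27.1-fold lower with a wide interval (9.14 to 133). COX2i was 6.77-fold above CTRL (5.78 to 7.98). The Ccl17 UMIs came from a minority of cells, with shares at 1000 UMIs of 2.02% (1.08 to 3.42), 0.256% (0.00649 to 1.42), 6.16% (4.45 to 8.26) and 13.8% (9.89 to 18.7), and at most 0.439% in non-immune cells. Without thinning they were 7.13%, 0.256%, 13.2% and 22.2%. Ccl22, a second CCR4 ligand, was 3.23, 3.05, 31.3 and 108 CPM, highest in COX2i + 5-AZA. The DC3 class held far more Ccl22, at 2297, 505, 2091 and 3859 CPM. Its Ccl17, at 1365, 9.62, 1267 and 1922 CPM, was far above cDC2 except in IRF3/7, where both classes held little. The CTRL values of DC3 rest on 10 cells.

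The CXCR3 ligands, which draw effector T cells and NK cells, differed in their order. Cxcl10 stood at 41.7, 1028, 258 and 531 CPM, highest in IRF3/7. Cxcl9 stood at 46.3, 71.7, 129 and 571 CPM, highest in COX2i + 5-AZA, where it was 4.43-fold above COX2i (3.93 to 5.00) and 12.3-fold above CTRL (10.2 to 15.0). In IRF3/7 Cxcl9 was 1.55-fold above CTRL (1.17 to 2.03), against 24.7-fold for Cxcl10 (20.4 to 30.1). Ccl5, which draws T cells and monocytes, was 15.4, 526, 23.3 and 183 CPM. The neutrophil attractant Cxcl2 was 312, 60.3, 194 and 327 CPM, lowest in IRF3/7. Of the chemokine list, past 2-fold higher and lower genes numbered 4 and 3 of 14, 6 and 0 of 15, 8 and 1 of 15, and 4 and 1 of 15 in the 4 comparisons. As shares of the list, 28.6%, 40.0%, 53.3% and 26.7% were higher, against 5.83%, 2.74%, 3.61% and 2.62% of all genes. The shares lower were 21.4%, 0%, 6.67% and 6.67%, against 13.9%, 0.736%, 4.76% and 5.68% of all genes.

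Ccr7, the receptor for migration to lymph nodes, stood at 28.0, 56.4, 135 and 132 CPM in cDC2, higher in both celecoxib groups, which did not differ beyond counting error (1.02-fold, 0.856 to 1.23). In the DC3 class it was between 4321 and 6382 CPM. The actin-bundling protein Fscn1 was 3.23, 0, 4.77 and 2.29 CPM, at or near the floor. The 10 markers of the CCR7+ class summed to 623, 846, 726 and 884 CPM, with Apol7c at 0 in 3 libraries and Nudt17 in 3. In the list of maturation genes 4 of 18, 3 of 19, 5 of 19 and 3 of 19 were past 2-fold higher in the 4 comparisons, among them Traf1 at 205, 466, 222 and 240.1 CPM. These are 22.2%, 15.8%, 26.3% and 15.8% of the list, where 5.83%, 2.74%, 3.61% and 2.62% of all genes were past 2-fold higher.

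Co-stimulation and checkpoint ligands did not move together. Cd40, which receives help from T cells, stood at 36.3, 399, 91.3 and 168 CPM, and Cd274 (PD-L1) at 77.6, 498, 138 and 377 CPM. Both were highest in IRF3/7 and lowest in CTRL. Pdcd1lg2 (PD-L2) had another order, with 17.2, 55.7, 38.2 and 226 CPM. In COX2i + 5-AZA it was 5.93-fold above COX2i (4.80 to 7.35). Tnfsf4 (OX40 ligand), a co-stimulator of CD4+ T cells, was 109.9, 29.0, 44.5 and 6.86 CPM, highest in CTRL and 16.0-fold lower in COX2i + 5-AZA (8.33 to 35.4). Cd80 was 291, 185, 255 and 306 CPM and Cd86 493, 721, 427 and 483 CPM, each within 2-fold. In the list of 15 measured genes, past 2-fold higher and lower numbered 5 and 3, 3 and 1, 5 and 1, and 5 and 1 in the 4 comparisons. That is 33.3%, 20.0%, 33.3% and 33.3% higher, where 5.83%, 2.74%, 3.61% and 2.62% of all genes were, and 20.0%, 6.67%, 6.67% and 6.67% lower, where 13.9%, 0.736%, 4.76% and 5.68% of all genes were.

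Of cytokine genes, Il1b, a main inflammatory cytokine, was high in all libraries at 3379, 2418, 3987 and 4748 CPM. Il18bp, which traps IL-18, stood at 21.5, 279.9, 41.8 and 159 CPM, and Il1rn, the IL-1 receptor antagonist, at 97.0, 197, 132 and 319 CPM. Il27 was low, with 0.359, 27.5, 1.49 and 14.5 CPM, and the CTRL value rests on 1 UMI, so its 76.5-fold ratio has an interval of 12.9 to 3103. Il15ra, which presents IL-15 to T and NK cells, was 8.26, 41.2, 11.3 and 27.4 CPM. The subunits of IL-12, Il12a and Il12b, stood at 3.81 CPM or less in every library, so IL-12 was hardly detected in cDC2 at this depth. Past 2-fold higher and lower genes numbered 5 and 3 of 14, 2 and 0 of 16, 3 and 1 of 14, and 3 and 1 of 15. The higher ones were 35.7%, 12.5%, 21.4% and 20.0% of the list, where 5.83%, 2.74%, 3.61% and 2.62% of all genes were. Lower ones, at 21.4%, 0%, 7.14% and 6.67%, were near the 13.9%, 0.736%, 4.76% and 5.68% of all genes.

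Signal components of the interferon receptors were examined next. The subunits Ifnar1 and Ifnar2 stood at 209, 212, 197 and 197 CPM and at 361, 479, 303 and 279.8 CPM, within 2-fold. Ifngr1 was 1334, 528, 1141 and 565 CPM, 2.53-fold below CTRL in IRF3/7 (2.33 to 2.74) and 2.02-fold below COX2i in COX2i + 5-AZA (1.87 to 2.19). Both libraries with the lower Ifngr1 were those with the highest interferon-γ list. In the list of 18 genes, past 2-fold higher and lower numbered 5 and 1, 3 and 0, 5 and 1, and 1 and 1. Higher genes made up 27.8%, 16.7%, 27.8% and 5.56% of this list, against 5.83%, 2.74%, 3.61% and 2.62% of all genes, and the single lower gene in 3 comparisons, 5.56% of the list, is near or under the share of all genes.

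Cell cycle genes set the libraries apart in another order. Mki67, a marker of dividing cells, stood at 122, 9.92, 243 and 70.9 CPM, and Top2a, the topoisomerase of dividing cells (chromosome 11, 98992943 to 99024189, minus strand), at 133, 13.0, 299 and 103 CPM. COX2i was highest and IRF3/7 lowest for both. Top2a was 10.2-fold below CTRL in IRF3/7 (6.30 to 17.7), 2.26-fold above CTRL in COX2i (2.00 to 2.55) and 2.90-fold below COX2i in COX2i + 5-AZA (2.42 to 3.50). At 1000 UMIs it was found in 6.20% (4.47 to 8.35), 0.513% (0.0622 to 1.84), 13.4% (10.9 to 16.2) and 5.00% (2.69 to 8.40) of cDC2, and without thinning in 12.1%, 1.79%, 26.9% and 10.7%.

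Of the cell cycle list, 14 of 15 genes were past 2-fold lower in IRF3/7 (median log2 ratio -2.65) and 9 of 16 higher in COX2i (median 1.02), each relative to CTRL. In COX2i + 5-AZA 2 of 15 were lower relative to CTRL (median -0.47) and 15 of 16 relative to COX2i (median -1.61). Of all genes, 13.9% were past 2-fold lower in the first of these comparisons, 2.74% higher in the second, and 4.76% and 5.68% lower in the others. The tenth of cells with the most cell cycle UMIs held between 48.4% and 66.6% of them in each library. The list was lower in other classes too. In IRF3/7 against CTRL its median was -2.31 in Infl_Mono and -1.17 in the non-immune class. In COX2i + 5-AZA against COX2i it was -1.54 in Infl_Mono, -0.94 in TAM_C1q, -0.85 in Monocyte_1, -0.80 in TAM_Spp1, -0.78 in cDC1, -0.58 in NK_cells, -0.24 in the class TAM_cycling and 0.03 in the non-immune class. In COX2i against CTRL, where cDC2 stood at 1.02, it was 0.86 in Ctsk_Macro, 0.62 in TAM_Spp1 and 0.41 in both TAM_C1q and Infl_Mono. TAM_cycling stood at 0.03 and the non-immune class at -0.08. In Infl_Mono Top2a was found in 2.15% (0.262 to 7.55), 0.461%, 2.31% (0.478 to 6.60) and 1.57% (0.814 to 2.73) of cells at 1000 UMIs. The IRF3/7 share in cDC2 lay at that level and the COX2i share above it, while in CTRL and COX2i + 5-AZA the counting intervals of both classes overlapped.

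The COX2 pathway that celecoxib blocks was read in the cells themselves. Ptgs2, which encodes COX2, stood at 473, 231, 392 and 585 CPM in cDC2. Ptger4 and Ptger2, receptors of prostaglandin E2, stood at 143, 109.8, 130.4 and 91.5 CPM and at 29.1, 8.39, 20.9 and 13.7 CPM, each highest in CTRL. Past 2-fold higher and lower genes of the list numbered 1 and 2 of 8, 0 and 1 of 10, 0 and 2 of 8, and 0 and 0 of 8. Against the 5.83% and 13.9% of all genes in IRF3/7 relative to CTRL, 1 and 2 of so few genes do not set the list apart. Alox5ap, of the leukotriene pathway, was 1503, 1245, 1527 and 1188 CPM. In the hypoxia and glycolysis list of 15 measured genes, past 2-fold higher and lower numbered 1 and 3, 1 and 0, 1 and 0, and 0 and 0, with list medians of -0.61, 0.40, 0.53 and 0.14. In IRF3/7 against CTRL that is 6.67% higher and 20.0% lower, near the 5.83% and 13.9% of all genes. The phosphofructokinase Pfkp, which commits sugar to glycolysis, stood at 299.8, 641, 492 and 840.1 CPM, and Vegfa, the growth factor induced by low oxygen, at 129, 47.3, 123 and 205 CPM.

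**Figure D5:**
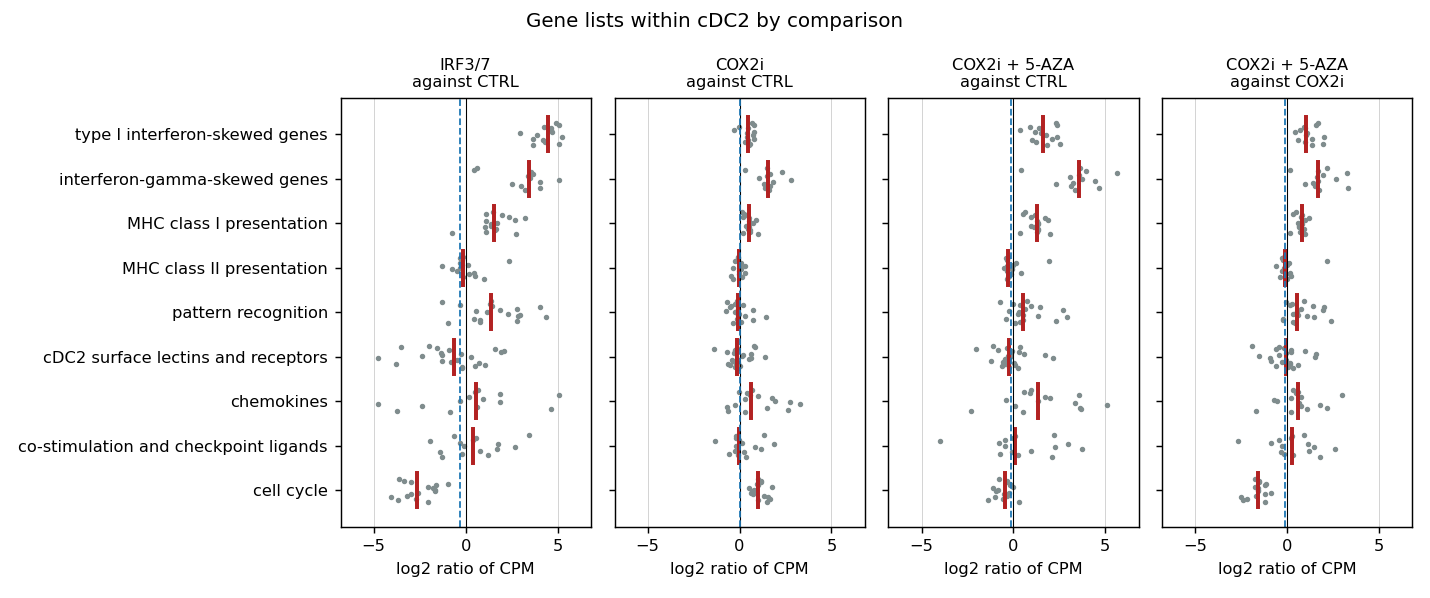
log2 ratio of CPM within cDC2 (x axis) for each gene with at least 20 UMIs (grey points) in 9 lists, 1 panel per comparison. Red bars are list medians, the dashed blue line is the median of all genes and the black line is 0. The type I list lies farthest to the right in IRF3/7 against CTRL (median 4.50), the interferon-γ list in the 3 other comparisons (medians 1.54, 3.56 and 1.65), and the cell cycle list lies to the left except in COX2i against CTRL (median 1.02).

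Single genes with the largest differences were taken by a fixed rule of size. In IRF3/7 against CTRL the 10 furthest above were Slfn4, Dnase1l3, Apod, Lipg, Siglech, Kdr, Ifit1bl1, Cfb, Ifi208 and Tgtp1. Slfn4, a schlafen gene induced by interferon (chromosome 11, 83175186 to 83190216, plus strand), stood at 2.51, 1118, 7.16 and 54.9 CPM, 445-fold higher than CTRL (215 to 1108). Dnase1l3, an enzyme that digests DNA in microparticles, stood at 0.718, 199, 18.5 and 223 CPM. It had 2 UMIs in CTRL, which gives a 277-fold ratio in IRF3/7 (76.0 to 2301). Lipg, endothelial lipase, had 107 UMIs in IRF3/7 and 0 in CTRL, at least 75.8-fold higher. Siglech was among the genes that picked the 13 cells with plasmacytoid markers.

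Below CTRL in IRF3/7 stood Cd101, Dcstamp, Agap1, Cd34, Fcrls, Nt5e, Ppp1r1a, Ptgfrn, Enpp1 and Rai14. Cd101, an inhibitory surface protein of myeloid cells, was 136, 1.53, 38.2 and 19.8 CPM. Dcstamp, a membrane protein first described in dendritic cells, was 308, 5.34, 198 and 223 CPM, 57.8-fold below CTRL in IRF3/7 (27.9 to 144). Cd34 (chromosome 1, 194938819 to 194961279, plus strand) was 245, 4.58, 115 and 10.7 CPM, low in both IRF3/7 and COX2i + 5-AZA. Dcstamp, Cd101 and Cd34 were at or below 3.94, 2.07 and 89.9 CPM in Infl_Mono and in the non-immune class of every library. Fcrls, a macrophage gene, was 80.4, 1.53, 137 and 41.2 CPM in cDC2 and 2135, 4.07, 1683 and 269.8 CPM in Infl_Mono, lowest in IRF3/7 in both classes. COX2i was above CTRL for it in cDC2 and below CTRL in Infl_Mono.

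In COX2i against CTRL the genes furthest above were Iigp1, Ccl17, Cxcl10, Slamf8, Gbp2, Ccr7, Hist1h1d, Ccl12, Icam1 and Igtp. Icam1, an adhesion ligand for T cells, stood at 21.5, 74.0, 79.4 and 170 CPM. Slamf8, a receptor of activated myeloid cells, stood at 11.8, 172, 71.9 and 236 CPM, 6.07-fold above CTRL in COX2i (4.21 to 9.02). Below CTRL stood S100a9, S100a8, Cd101, Apoe, Ltc4s, Acp5, Tnfsf4, Tnfrsf23, Ap1s2 and Gsr. S100a9 and S100a8, which neutrophils hold in bulk, were 70.0, 8.39, 4.18 and 25.9 CPM and 52.1, 25.2, 3.88 and 57.2 CPM. Non-immune cells held S100a8 at 78.3, 295, 3.33 and 24.5 CPM, and the 6 neutrophil markers summed to 161, 191, 15.2 and 153 CPM in cDC2. Apoe was 686, 309, 217 and 209.6 CPM in cDC2 and 35414, 5786, 7280 and 2310 CPM in Infl_Mono. The part of free RNA in these differences was not tested.

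In COX2i + 5-AZA against CTRL the genes furthest above were Dnase1l3, Ccl22, Serpina3g, Iigp1, Slamf8, Cfb, Gpr33, Tgtp1, Gbp2 and Pdcd1lg2. Cfb, factor B of complement, stood at 5.39, 229, 15.2 and 98.3 CPM, and Gpr33, a chemoattractant receptor, at 5.39, 174, 15.5 and 83.9 CPM. Both were highest in IRF3/7. Below CTRL stood Cd34, Tnfsf4, Agap1, Enpp1, Cd101, Itga6, Dhrs3, Cst7, Aqp9 and Timp1. Enpp1, a phosphodiesterase that breaks down the STING ligand cGAMP, was 118, 3.05, 93.1 and 16.8 CPM, low in both IRF3/7 and COX2i + 5-AZA. Timp1, an inhibitor of matrix proteases, was 263, 48.1, 238 and 48.8 CPM in cDC2, where non-immune cells held 971, 2124, 687 and 763 CPM.

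In COX2i + 5-AZA against COX2i the genes furthest above were Fam71f2, Dnase1l3, Serpina3g, Ccl5, C3, Cfb, Gbp8, Pdcd1lg2, Tarm1 and Gpr33. Fam71f2 stood at 7.90, 3.05, 5.37 and 68.6 CPM, high in COX2i + 5-AZA alone, 12.8-fold above COX2i (7.64 to 22.5). C3, the central complement component, was 13.3, 60.3, 20.6 and 157 CPM. Below COX2i stood Cd34, Hist1h1d, Hist1h1b, Tk1, Enpp1, Bgn, Hist1h1a, Timp1, Pclaf and Col1a2. Of these, Tk1 and Pclaf are in the cell cycle list, and Hist1h1a, Hist1h1b and Hist1h1d encode linker histones made in S phase, with Hist1h1b at 121, 15.3, 299 and 50.3 CPM. Bgn and Col1a2 encode matrix proteins. The 5 tumour and stromal markers summed to 73.3, 32.8, 146 and 41.9 CPM in cDC2, with Col1a2 at 4772, 1983, 9669 and 6197 CPM in the non-immune class, whose part in the cDC2 values was not tested.

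IRF3/7 against CTRL and COX2i + 5-AZA against COX2i share no library and were set side by side over 7802 genes. Pearson's r of the log2 ratios was 0.58 and Spearman's rho 0.48, across genes, which are not independent replicates. Of the genes past 2-fold higher, 133 were so in both, 30.8% of 432 in the first and 68.2% of 195 in the second. Of the genes past 2-fold lower, 210 were so in both, 19.5% of 1079 in the first and 65.2% of 322 in the second. Among the named genes Dnase1l3, Cfb, Serpina3g, Gpr33 and Ccl5 were higher, and Cd34, Enpp1, Timp1 and Tk1 lower, in both.

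Markers of cDC1 were also read in cDC2, where they did not move as a block. Naaa, a lysosomal amidase typical of cDC1, stood at 210.1, 558, 504 and 1370 CPM in cDC2, against 2956 to 3712 CPM in the cDC1 class and 237, 341, 422 and 1018 CPM in Infl_Mono. Clec9a and Xcr1, defining receptors of cDC1, were 5.75, 21.4, 13.7 and 53.4 CPM and 0.359, 3.05, 0.895 and 7.62 CPM. Wdfy4, Tlr3 and Itgae were not highest in COX2i + 5-AZA, at 157, 113, 135 and 156 CPM, at 29.1, 73.2, 24.2 and 29.0 CPM and at 49.2, 25.2, 25.4 and 42.7 CPM. The 8 cDC1 markers summed to 464, 829.8, 722 and 1692 CPM, with none at 0 and with Naaa the larger part of the COX2i + 5-AZA sum. Past 2-fold higher numbered 3 of 5, 2 of 6, 2 of 5 and 2 of 6 in the 4 comparisons. As shares that is 60.0%, 33.3%, 40.0% and 33.3%, against 5.83%, 2.74%, 3.61% and 2.62% of all genes. The part of the cDC1 markers in other differences was not tested.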

How the data were processed

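Per the methods of the study and the labels, the authors made the deposited UMI counts from fixed cells assayed with the Chromium Flex probe kit, using Cell Ranger 7.1.0 with probes designed on mouse build mm10, which is GRCm38. They removed cells of low gene number or high mitochondrial or ribosomal content and pooled the 4 libraries in 1 table of 12584 genes, which holds raw counts. For clustering they used log-normalised, scaled and batch-corrected values, which were not used here. Class names came from the deposited cell table, where the authors had named clusters of an integration of several experiments. No doublet caller was run here, and cells with over 2 times the median UMI total of their library's cDC2 were left out as an alternative. The probe assay reads part of a transcript, and depth and fixation limit genes of low level.

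Libraries were grouped by their labels, and 4 comparisons were made within cDC2, 3 of which share CTRL. UMIs were summed per library. Sums carry exact Poisson, shares exact Clopper-Pearson and ratios exact conditional 95% intervals. A count of 0 was set to 3 counts per library. Genes past 2-fold were counted at 50 UMIs in both libraries together, and list medians used genes with 20 UMIs. Named genes were the 10 with the largest difference in each direction per comparison (100 UMIs in both libraries, 50 CPM in the higher one), the 10 that led cDC2 by the lowest of 4 ratios to all other cells at 50 CPM in every library, list genes at 20 CPM in 1 library as examples, and all markers. The members and the 30 gene lists were chosen with earlier results of these data known. The ratio, interval and thinning steps were tested on simulated data. Python 3.11.15 was used with numpy 2.4.6, scipy 1.17.1, pandas 2.3.3 and matplotlib 3.10.9. Promoter windows were those of RefSeq, and coordinates those of the GENCODE annotation of GRCm38. Alternatives were other scalings, count minimums, cell filters and thinning depths. Some genes are not reported here.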

Additional observations from a re-analysis of the deposited data

How the results depend on the processing

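Each group was 1 library of pooled tumours, so differences between tumours and between libraries cannot be told apart from those between conditions, and no library could be left out. No paired analysis was possible because each group had 1 library. Of 156 alternative values for the main results, 125 were called the same and 31 moved. Shares counted as the same within the counting interval, and percentages of genes past 2-fold within 1.5 times. List medians counted as the same when the log2 ratio differed by less than log2 of 1.5. Every interferon list median kept its direction and stayed near its value under each alternative run, among them 3 chosen after seeing the data (without Irf7, without cells with plasmacytoid markers, and with droplet barcodes of 1 library). Of the values for other lists 859 of 881 did not move, and for single genes 687 of 719. In alternatives a list median needed 3 genes.

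With a minimum of 200 UMIs, genes past 2-fold made up 1.88% for COX2i relative to CTRL and 5.07% for COX2i + 5-AZA relative to COX2i, and the part of these that was higher became 44.4% from 29.6% in IRF3/7 against CTRL. In COX2i + 5-AZA against CTRL the balance turned, from 43.1% of these genes higher to 55.2% at that minimum and to 58.7% under size factors. The cDC2 share of cells was 5.12%, 4.66%, 5.64% and 2.24% among cells with more than 2000 genes, and 5.03%, 2.81%, 5.65% and 1.91% when a cDC2 needed a UMI of a supporting marker. Without the class Myofibrobl it was 8.10% in COX2i. Shares of cDC2 with a UMI rise with the thinned depth by construction. At 500 and 2000 UMIs, Isg15 was found in 6.36% and 14.0% of CTRL, 77.9% and 97.7% of IRF3/7, 8.26% and 23.8% of COX2i, and 25.3% and 50.2% of COX2i + 5-AZA. For Cd209a the shares were 11.9% and 25.5% in CTRL and 19.1% and 36.4% in COX2i, with 1.79% in IRF3/7 and 4.98% in COX2i + 5-AZA at 500 UMIs. Ccl17 was found in 5.25% of CTRL and 8.75% of COX2i at 2000 UMIs and in 9.58% of COX2i + 5-AZA at 500 UMIs. Top2a was found in 3.41% of CTRL at 500 UMIs and in 7.96% and 20.2% of COX2i.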
